A study of Mus musculus with 2 samples.

Results

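The 7 genes described here encode the cytosolic factors that lengthen the growing protein chain on mouse ribosomes, and the kinase that restrains eEF2 among them. They are Eef1a1, Eef1a2, Eef1b2, Eef1d, Eef1g, Eef2 and Eef2k, taken by gene symbol from the annotation carried in the transcript tables and joined by gene identifier to the gene tables. All 7 were found among the 55536 annotated genes. The data are total RNA sequencing of heart tissue from male adult mice of the 5xFAD/CAST strain, aged 8 to 10 months and supplied by The Jackson Laboratory. 5xFAD mice carry transgenes that lead to amyloid plaques in the brain, and the labels do not give the promoter that drives them. CAST is an inbred strain of wild origin. The 2 libraries form 1 group, and their biological replicate numbers 1 and 2 name them here as library 1 and library 2. Library 1 held 39819960 expected counts and library 2 held 37060119, where an expected count splits reads shared by several entries. The labels give them separate tissue samples but a shared donor identifier, so any spread between them may be technical. With no second tissue, age or genotype, the levels below are a description of this heart tissue, with no test between groups.

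Elongation factor eEF1A brings each aminoacyl-tRNA to the ribosome as a complex with GTP. The eEF1B subunits exchange the spent GDP for GTP so that eEF1A can work again, and eEF2 moves the ribosome along the mRNA by the length of a codon. The kinase eEF2K phosphorylates eEF2 and so slows elongation when calcium rises or energy is short. Mammals carry a pair of eEF1A genes: Eef1a1 is used by most cells, and Eef1a2 takes over in adult skeletal muscle, heart muscle and many neurons. In rodents this change of form happens after birth, and mice that lack Eef1a2 (the wasted mutant) lose muscle and motor neurons.

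The paralogous mRNAs are alike in protein but can be told apart by reads. The proteins encoded by Eef1a2-201 (463 residues) and Eef1a1-201 (462 residues) were identical at 427 of 462 aligned residues, or 92.4%. Their coding sequences were identical at 1110 of 1386 aligned bases, or 80.1%, and 225 of the 276 differences (81.5%) lay at the third codon position. The stretches below are shown because they hold the most differences and the fewest differences of any 60 aligned coding bases. Capitals mark the bases that differ between the genes, and the sequences come from the GENCODE M21 transcripts of mm10. The pair with the most differences, 22 of 60 bases at codons 215 to 234 of both proteins, reads:
Eef1a2-201: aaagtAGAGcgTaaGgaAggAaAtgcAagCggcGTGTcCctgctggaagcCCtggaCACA
Eef1a1-201: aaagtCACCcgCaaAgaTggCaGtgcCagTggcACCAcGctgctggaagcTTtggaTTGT
The pair with the fewest, 5 of 60 bases at codons 25 to 44, reads:
Eef1a2-201: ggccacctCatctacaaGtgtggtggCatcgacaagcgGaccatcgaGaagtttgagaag
Eef1a1-201: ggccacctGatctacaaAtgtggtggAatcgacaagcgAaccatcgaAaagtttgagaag
The longest stretch found unbroken in both whole transcripts was 23 bases, and 0 of the 1764 words of 31 bases in Eef1a1-201 occurred in Eef1a2-201. Variants of the 5xFAD/CAST strain were not examined, but in these mm10 sequences no exact match of 31 bases or more therefore fits both mRNAs.

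The same was not true between Eef1a1 and its own copies. Of the 31-base words of Eef1a1-201, 1275 (72.3%) also occurred in transcripts of other annotated genes, against 0 of 2054 words of Eef1a2-201. GENCODE M21 holds 19 pseudogene copies of Eef1a1 and 0 of Eef1a2, counting annotated pseudogenes that match a member at 90% identity or more over at least 50% of their length. Reads that fit several entries were split between them by the estimator that made the tables. It attached a standard deviation of 8.94 and 8.50 reads to the Eef1a1 count in libraries 1 and 2, and of 0 reads to the Eef1a2 count in both.

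The carrier's mRNA was mainly of the muscle form. Protein levels were not measured, so the shares and ratios here are of mRNA. Eef1a2 (chromosome 2, 181147653 to 181157014, minus strand of mm10) stood at 546 and 521 TPM in libraries 1 and 2, where TPM, a measure of transcript abundance, scales reads for gene length and library total. Eef1a1 (chromosome 9, 78478449 to 78489151, minus strand) stood at 302 and 317 TPM. Eef1a2 was thus higher than Eef1a1 in each library, and the ranges of the genes did not overlap. The averages were 533 ± 17.8 TPM for Eef1a2 and 310 ± 10.3 TPM for Eef1a1 (SD, n = 2 libraries, as for every value with ± below). The ratio of Eef1a2 to Eef1a1 in TPM was 1.80 in library 1 and 1.64 in library 2, and Eef1a2 held 63.3% ± 1.55 of their summed TPM. In bulk tissue a lower level can come from fewer cells of a type or from less RNA per cell, and these cannot be told apart.

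Behind those levels lay 35897 and 32219 expected counts for Eef1a2 in libraries 1 and 2, and 15070 and 14490 for Eef1a1. As a share of the counts of both genes, Eef1a2 held 70.4% in library 1 (95% exact Clopper-Pearson interval 70.0% to 70.8%) and 69.0% in library 2 (68.6% to 69.4%). These intervals cover counting error only and did not overlap. The share of counts was higher than the share of TPM because counts are not divided by length, and the effective length was 1984 bases for Eef1a2 in both libraries, against 1503 and 1466 bases for Eef1a1 in libraries 1 and 2. Levels between genes are therefore compared in TPM.

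The size of the share depended on which transcripts of Eef1a1 were counted. In the second quantification, a separate estimate deposited for the same libraries, Eef1a2 stood at 522 and 508 TPM and Eef1a1 at 370 and 420 TPM, which gave Eef1a2 a share of 58.5% and 54.7%. Eef1a2 was again the higher gene in each library. The Eef1a1 transcript that differed most was Eef1a1-208, a 745-base model of 3 exons whose coding sequence is annotated as incomplete. It was given 44.7 and 52.7 TPM in the first quantification and 158 and 189 TPM in the second. Counting only transcripts with a complete coding sequence, the Eef1a2 share was 68.2% ± 0.801 in the first and 74.2% ± 0.312 in the second quantification, an alternative chosen after seeing the data. Adding the counts of all its pseudogene copies to Eef1a1 gave 62.3% ± 1.50. Every way of computing it that was tried placed Eef1a2 above Eef1a1 in both libraries. Some of these could not have lowered the share. FPKM, a related scaling for length and library total, gives the same share as TPM by construction. Leaving out Eef1a1 transcripts can only raise the share, since the only Eef1a2 transcript has a complete coding sequence.

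**Figure D1:**
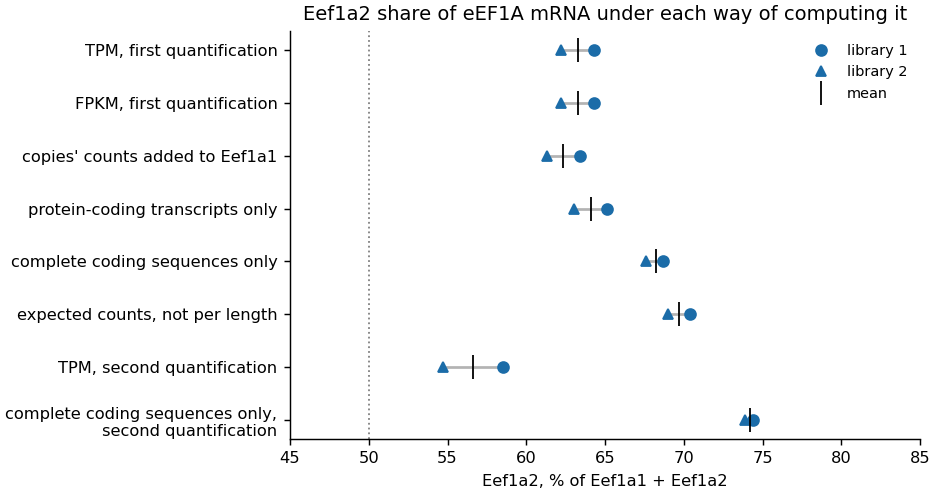
Share of Eef1a2 in the sum of Eef1a1 and Eef1a2, in percent (x axis), for each way of computing it (rows). Circles are library 1, triangles library 2 and black ticks the mean. The dotted line marks equal levels, and all points lie to its right, with means from 56.6% in the second quantification to 74.2% when only complete coding sequences of the second quantification enter.

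Eef1a2 has a single annotated transcript, Eef1a2-201, of 2084 bases in 8 exons, so its level involves no choice between transcripts. Eef1a1 has 8, and Eef1a1-201 (1794 bases, 8 exons) is its only model with a complete coding sequence. Eef1a1-201 was given 248 and 249 TPM in the first quantification, or 80.4% ± 2.39 of the gene. In the second it was given 180 and 179 TPM, or 45.6% ± 4.19, and Eef1a1-208 exceeded it in library 2. On the scale of counts the difference was smaller, since Eef1a1-201 held 13937 and 13179 expected counts in the first quantification and 11517 and 10382 in the second. The short processed transcript Eef1a1-204 (505 bases) followed at 5.29 and 8.94 TPM in the first quantification and 29.7 and 49.6 TPM in the second.

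Other muscle forms of the translation apparatus were looked at beside this pair. Rpl3l, the ribosomal protein that replaces Rpl3 in heart and skeletal muscle, stood at 132 and 124 TPM in libraries 1 and 2, against 50.0 and 45.1 TPM for Rpl3. Rpl3l held 72.9% ± 0.606 of their summed TPM, and 73.6% ± 0.0422 in the second quantification. Both pairs were thus led by the muscle form, with no test of whether their shares differ. Markers of the cell types that heart tissue could hold were also measured. All 7 cardiomyocyte markers (Myh6, Actc1, Tnni3, Tnnt2, Myl2, Pln, Ryr2) were detected, and their summed level was 28389 and 28196 TPM in libraries 1 and 2. The 6 neuronal markers summed to 2.11 and 2.59 TPM, with Stmn2 alone above 1 TPM in both libraries and 0 of the 6 at 0. The 6 skeletal muscle markers summed to 8.32 and 10.3 TPM, with 3 of them (Myh4, Tnnt3, Tnni2) above 1 TPM in both. The part of neurons or skeletal muscle in the Eef1a2 level was not tested. Vessel, fibroblast and macrophage markers were present: the summed level was 125 and 113 TPM for 5 endothelial markers, 143 and 131 TPM for 5 mural markers, 211 and 199 TPM for 6 fibroblast markers and 43.2 and 45.1 TPM for 5 macrophage markers. Their part in the level of Eef1a1 was not tested. The 5 adipocyte markers summed to 30.6 TPM in library 2 and 9.71 TPM in library 1.

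The mRNAs of the eEF1B subunits were lower than that of either carrier. Eef1b2, which encodes the catalytic alpha subunit (chromosome 1, 63176825 to 63180486, plus strand), stood at 139 and 132 TPM in libraries 1 and 2. Eef1d, the catalytic delta subunit (chromosome 15, 75894205 to 75909556, minus strand), stood at 88.3 TPM in both. Eef1g, the gamma subunit that holds the complex together (chromosome 19, 8967041 to 8978479, plus strand), stood at 73.9 and 75.7 TPM. Summed over all transcripts of a gene, the order alpha, delta, gamma held in each library and in both quantifications, with ranges that did not overlap within a quantification. The order depended on the transcripts counted. With complete coding sequences only, Eef1d (44.7 and 49.0 TPM in libraries 1 and 2) lay below Eef1g (67.1 and 66.1 TPM) in the first quantification, and likewise in the second (45.8 and 58.3 TPM for Eef1d, 59.2 and 60.2 TPM for Eef1g). With transcripts typed as protein-coding, Eef1d (86.6 TPM) lay above Eef1b2 (83.2 TPM) in library 2. On average Eef1b2 was at 1.81 ± 0.102 times the TPM of Eef1g, and Eef1d at 1.18 ± 0.0203 times. Summed eEF1A was at 8.46 ± 0.0387 times the mean of the 3 subunits in the first and 8.09 ± 0.184 times in the second quantification. That ratio was 10.3 ± 0.245 when only transcripts typed as protein-coding entered, and 11.6 ± 0.0890 for complete coding sequences.

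Much of the Eef1b2 signal was not assigned to mRNA with an intact reading frame. Transcripts of Eef1b2 annotated for nonsense-mediated decay, the pathway that degrades mRNAs with an early stop codon, held 42.8 and 47.6 TPM in libraries 1 and 2, or 33.4% ± 3.83 of the gene. In the second quantification the share was 37.4% ± 8.41. The largest of these was Eef1b2-205 at 32.5 and 35.0 TPM, with Eef1b2-208 at 8.32 and 12.2 TPM. The second quantification gave Eef1b2-208 0 TPM in both libraries and placed 19.6 and 29.0 TPM on Eef1b2-206 instead, so only Eef1b2-205 was stable between the estimates. Eef1b2 was the only one of the 7 genes with any annotated transcript of this class.

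The leading Eef1b2 transcript was Eef1b2-209, at 89.4 and 79.8 TPM, in every table and library. Its reading frame of 184 codons is shorter than the 225 codons of Eef1b2-204, and all 184 residues were identical to residues of the longer protein. Eef1b2-204, which carries the full alpha subunit in a 1939-base transcript, was given 5.48 and 3.35 TPM in the first quantification and 10.6 and 10.1 TPM in the second. The models overlap heavily: only 29 of the 651 words of 31 bases in Eef1b2-209 occur in no other Eef1b2 transcript, so the split between them rests on few specific bases.

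Eef1d has 18 annotated transcripts, and no single one dominated. Eef1d-207 (257 codons) was given 29.5 and 22.9 TPM in libraries 1 and 2, and Eef1d-217 (190 codons) 12.3 and 23.2 TPM, so a different model led in each library of the first quantification. In the second quantification Eef1d-217 led in both libraries at 38.3 and 50.2 TPM, while Eef1d-207 had 5.20 and 5.10 TPM. Eef1d-213, with an incomplete coding sequence, held 22.8 and 18.3 TPM in the first quantification and 19.1 and 15.6 TPM in the second. Eef1d-201, also incomplete, held 11.1 and 11.6 TPM in the first quantification, while the second gave it 18.4 TPM in library 1 and 0.756 TPM in library 2. The models are hard to separate by sequence: 0 of the 866 words of 31 bases in Eef1d-207 are absent from the other Eef1d transcripts. The gene total moved less than these parts, and averaged 98.9 ± 5.42 TPM in the second quantification.

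Eef1d also has a long form with an added amino-terminal region, known from brain and testis. Its 3 transcripts (Eef1d-204, Eef1d-206 and Eef1d-212, each over 500 codons) held 0.230 and 0.180 TPM in the first quantification, or 0.232% ± 0.0400 of the gene, and 1.29 and 1.57 TPM in the second, or 1.44% ± 0.122. That was 16.4 and 15.3 expected counts in libraries 1 and 2 of the first quantification. Models annotated as the long form thus held a small part of the gene. The short delta protein and the alpha subunit shared 132 of 209 aligned residues (63.2%), in a global alignment of Eef1b2-204 with Eef1d-207.

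Eef1g was led by Eef1g-201, its only transcript with a coding sequence (437 codons), at 67.1 and 66.1 TPM or 89.0% ± 2.44 of the gene. In the second quantification Eef1g-201 was at 59.2 and 60.2 TPM, or 69.9% ± 0.690, and the processed transcript Eef1g-202 (706 bases) took 22.8 and 25.1 TPM. Eef1g had the largest standard deviation from the estimator, 28.6 and 27.3 reads on 4080 and 3816 expected counts. That measure leaves out differences between the quantifications. For Eef2k it was 0 reads, yet its 1301 and 1215 expected counts became 1487 and 1386 in the second quantification. Eef1g has 5 pseudogene copies, which together held 9.09% and 7.87% as many counts as Eef1g in libraries 1 and 2. Gm4366, a copy 99.6% identical to Eef1g over 1342 bases, was given 114 and 93.6 counts in the first quantification but 3.61 and 0 counts in the second.

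**Figure D2:**
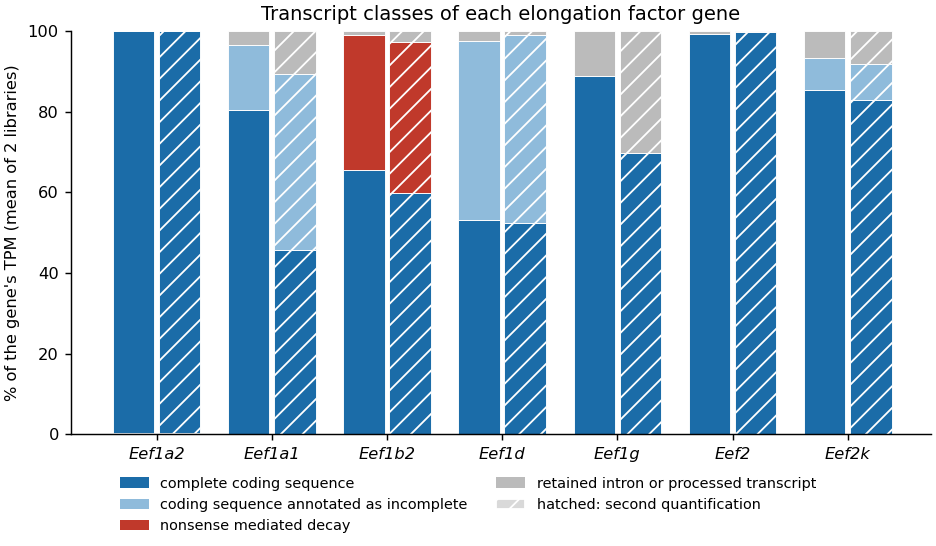
Share of each gene's TPM, in percent (y axis, mean of 2 libraries), held by transcripts with a complete coding sequence, an incomplete one, a nonsense-mediated decay annotation, or a retained intron or processed annotation. Plain bars are the first quantification and hatched bars the second. The complete share is 99.4% for Eef2 in the first quantification and lowest for Eef1a1 in the second, at 45.6%.

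The translocase mRNA stood near the level of the general carrier's mRNA. Eef2 (chromosome 10, 81176631 to 81182498, plus strand) stood at 342 and 334 TPM in libraries 1 and 2 of the first quantification and at 296 TPM in both of the second. Its level lay above Eef1a1 in both libraries of the first quantification (ratio 1.09 ± 0.0561) and below it in both of the second (0.752 ± 0.0687), so their order over all transcripts depended on the quantification. With complete coding sequences only, Eef2 lay above Eef1a1 in both: at 340 and 332 TPM, against 248 and 249 TPM for Eef1a1, in the first, and at 295 TPM in each library, against 180 and 179 TPM, in the second. Eef1a2 was above Eef2 in each, at 1.58 ± 0.0240 times its TPM in the first and 1.74 ± 0.0294 times in the second quantification. Set against both carriers together, Eef2 had 0.401 ± 0.00370 of their TPM, or 0.325 ± 0.00981 by the second quantification. Per complete coding sequence, these were 0.430 ± 0.00144 and 0.425 ± 0.00577.

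Among the members with more than 1 annotated transcript, Eef2 had the largest share in its leading model. Eef2-201 (3089 bases, 14 exons, 858 codons) held 99.4% ± 0.0156 of its TPM in the first quantification, on 33714 and 30912 expected counts. Its most abundant pseudogene copy, Gm13050 on chromosome 4, had 830 and 701 counts and is 97.0% identical over 1345 bases. All 3 copies together amounted to 2.51% and 2.30% of the Eef2 counts in libraries 1 and 2.

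The eEF2 kinase mRNA was scarce beside its substrate. Eef2k (chromosome 7, 120842831 to 120907450, plus strand) stood at 13.4 and 11.7 TPM in libraries 1 and 2 of the first quantification and at 13.2 TPM in both of the second. Eef2 was at 27.0 ± 2.06 times the TPM of Eef2k in the first and 22.4 ± 0.0389 times in the second quantification. The expected counts, 1301 and 1215, were in the ratio of the library totals (library 2 over library 1 after scaling, 1.00), and the effective length used to turn them into TPM was 2926 bases in library 1 and 3321 bases in library 2. Its 3 leading transcripts carry the same reading frame of 724 codons with different ends: Eef2k-204 (3047 bases) at 5.02 and 5.70 TPM, Eef2k-203 (2537 bases) at 2.64 and 3.26 TPM and Eef2k-201 (6580 bases) at 2.55 and 2.15 TPM.

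**Figure D3:**
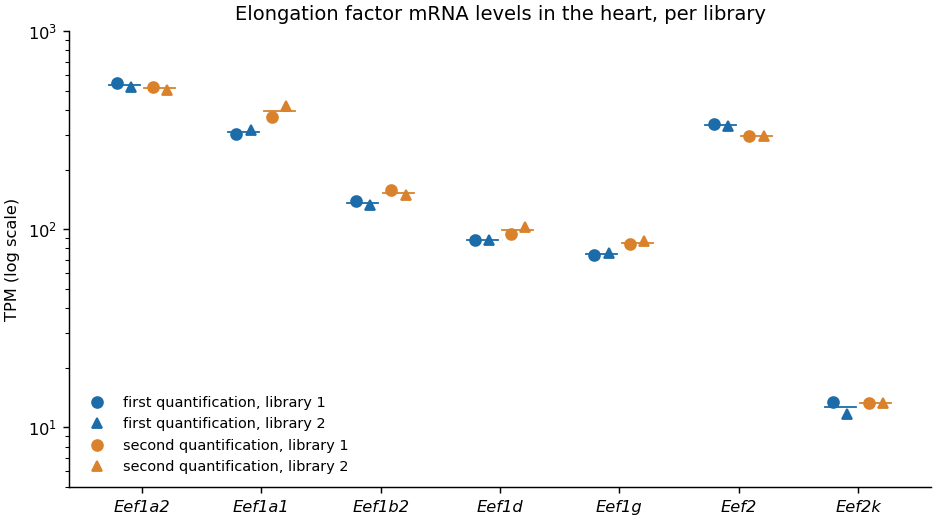
Level of each elongation factor gene in TPM (y axis, log scale), with circles for library 1, triangles for library 2 and a line at their mean. Blue is the first quantification and orange the second. Eef1a2 is the highest of the 7 in both, Eef2k the lowest at 12.6 ± 1.19 TPM in the first, and Eef1a1 and Eef2 change places between the quantifications.

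Nuclear protein-coding genes, 22015 in all, took 32.7% of all TPM in each library, and the 7 members made up 0.456% ± 0.00573 of that TPM. All 7 reached 1 TPM, and also 10 TPM, in both libraries, where 10993 and 10978 genes of the class reached 1 TPM in libraries 1 and 2. By mean TPM in this class, Eef1a2 ranked 76, Eef2 143, Eef1a1 156, Eef1b2 356, Eef1d 537, Eef1g 635 and Eef2k 3710.

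A single group of libraries gives no pattern across conditions to match, so the genes nearest in mean TPM are named for scale only. Nearness was judged in the first quantification, and some of these genes, such as Ndufb4, Gm10053 and Hist1h2bq, lay further off in the second. Nearest to Eef1a2 were Uqcrh (533 ± 16.4 TPM), a subunit of respiratory complex III, and Ndufc1 (533 ± 6.96 TPM), a subunit of complex I. Nearest to Eef1a1 were the complex I subunit Ndufa1 (309 ± 10.6 TPM) and the atrial light chain Myl4 (309 ± 64.7 TPM), and nearest to Eef2 were Etfa (341 ± 1.17 TPM), an electron carrier of fat oxidation, and Gm10053 (339 ± 14.0 TPM). Eef1b2 stood beside Xirp2 (136 ± 4.91 TPM), an actin-binding protein of heart muscle, and Tsc22d1 (135 ± 4.51 TPM). Eef1d stood beside the ubiquitin-like protein Ubl5 (88.2 ± 4.95 TPM) and the lipid carrier Apoe (88.1 ± 4.24 TPM), and Eef1g beside the actin crosslinker Flnc (74.7 ± 2.27 TPM) and the complex I subunit Ndufb4 (74.9 ± 2.89 TPM). Eef2k stood beside 0610009B22Rik (12.6 ± 1.00 TPM) and the histone gene Hist1h2bq (12.6 ± 0.813 TPM).

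The libraries matched closely for the 7 genes. Scaled by library total, the ratio of expected counts of library 2 over library 1 had a 95% exact interval that excluded 1 for 3 of the 7, against 21.1% of the 16092 genes with at least 10 counts in a library and 33.5% of the 3405 protein-coding genes with at least 1000 counts in both. The share among genes of at least 1000 counts is the closer match in depth, since all members had over 1000. Eef1a1 was higher in library 2 (ratio 1.03, interval 1.01 to 1.06), while Eef1a2 (0.964, 0.950 to 0.979) and Eef1b2 (0.932, 0.883 to 0.984) were lower in library 2. These ratios lay within 7% of 1, the interval covers counting error only, and 0 of the 7 passed a TPM ratio of 2-fold, against 0.603% of 11940 genes. The median size of the log2 TPM ratio was 0.068 over the members and 0.10 over those 11940 genes. Those genes needed only 10 counts in a library, while all members had over 1000. Neither the medians nor the 2-fold shares are therefore matched for depth.

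The calls on Eef1a1 and Eef2 depended on how the libraries were scaled. With edgeR's TMM library sizes the interval of Eef2 also excluded 1 (0.978, 0.963 to 0.994). With DESeq2 size factors Eef2 was called (0.974, 0.959 to 0.989) and Eef1a1 was not (1.02, 0.998 to 1.04). Eef1a2 and Eef1b2 kept their call and direction under each scaling and in the second quantification. Endothelial, mural, fibroblast and cardiomyocyte marker sums were also lower in library 2. Single markers higher there were 0 of 5, 1 of 5, 1 of 6 and 3 of 7, in that order. The cardiomyocyte sums were close, at 28389 and 28196 TPM in libraries 1 and 2. The adipocyte, macrophage, neuronal and skeletal muscle sums were higher in library 2. All 5 adipocyte and 5 of 6 skeletal muscle markers were higher there. Only 2 of 5 macrophage and 2 of 6 neuronal markers were, so those sums rose through few genes. The part of these cell types in the small differences was not tested.

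**Figure D4:**
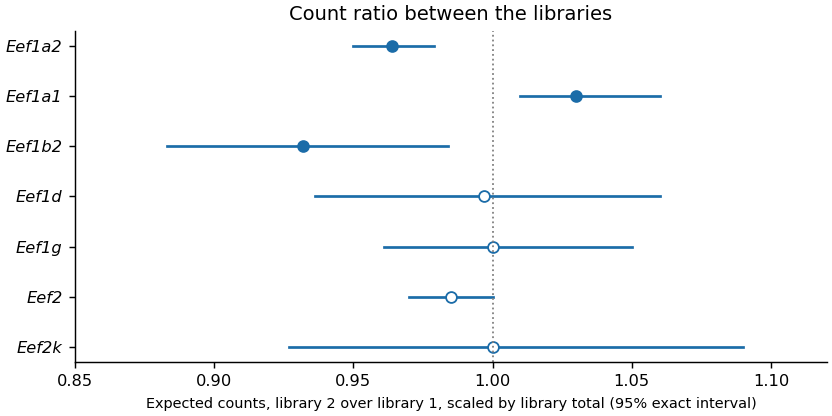
Ratio of expected counts in library 2 over library 1, scaled by library total (x axis), for each gene, with its 95% exact interval as a line. Filled circles have an interval that excludes 1, as for Eef1a2, Eef1a1 and Eef1b2. All ratios lie between 0.932 and 1.03.

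Enzymes that modify the factors were detected at low levels. The methyltransferases of eEF1A were led by Eef1akmt1 (12.3 ± 0.0636 TPM) and Eef1akmt2 (2.84 ± 0.488 TPM), with Eef1akmt4 at 2.22 ± 0.481 TPM and Mettl13 at 2.12 ± 0.148 TPM. Eef1akmt3 stood at 0.0150 ± 0.00707 TPM on 2 and 1 expected counts, which makes 5 of 6 detected with N6amt1 (7.04 ± 0.955 TPM), a member of the list that is known for methylating the release factor eRF1 instead. The 7 enzymes that build diphthamide, the modified histidine of eEF2 that diphtheria toxin attacks, were all detected, from Dph3 at 26.1 ± 3.74 TPM to Dph2 at 1.55 ± 0.325 TPM. The diphthamide enzymes were thus each below Eef2 in TPM, and the methyltransferases each below Eef1a1 and Eef1a2. Eif5a, a factor that relieves stalled ribosomes and carries hypusine, stood at 136 ± 4.60 TPM, the level of Eef1b2 in the first quantification. In the second, Eif5a was at 128 ± 1.60 TPM and Eef1b2 at 153 ± 5.43 TPM. The paralog Eif5a2 stood at 0.460 ± 0.0141 TPM in the first. The hypusine enzymes Dohh (16.4 ± 0.559 TPM) and Dhps (11.2 ± 0.304 TPM) completed a list with 3 of 4 detected.

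Upstream of eEF2 kinase, all 12 listed regulators and phosphatase subunits were detected. Calmodulin, which activates the kinase with calcium, was encoded at 59.5 ± 1.11 TPM by Calm3 and 49.0 ± 1.72 TPM by Calm2, both above Eef2k itself. Of the catalytic subunits of AMPK, a kinase that activates eEF2K when energy is low, Prkaa2 stood at 27.5 and 25.2 TPM in libraries 1 and 2, against 4.57 and 4.87 TPM for Prkaa1. Prkaa2 is the form known from heart and skeletal muscle. Mtor, whose pathway inhibits eEF2K, was at 17.1 ± 0.488 TPM, and the eEF2 phosphatase subunit Ppp2ca at 17.1 ± 0.177 TPM.

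Partners of eEF1 were mostly at about the level of Eef2k. Vars, the valyl-tRNA synthetase bound to the eEF1B complex, stood at 10.5 ± 0.728 TPM, Eef1e1 at 5.44 ± 0.0778 TPM, and the synthetase scaffolds Aimp1 and Aimp2 at 17.5 ± 0.665 and 9.91 ± 0.771 TPM. The exception was Tpt1, a small protein that binds eEF1A and eEF1B, at 868 ± 26.5 TPM, above all 7 elongation factor genes. All 5 of this list were detected.

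The neighbouring steps of translation gave a scale for these levels. All 36 initiation factor genes listed were detected, with a median of 30.4 TPM, and their leaders were Eif1 (485 ± 1.46 TPM), Eif4g2 (316 ± 1.46 TPM), Eif4g1 (142 ± 1.59 TPM), Eif4a2 (113 ± 1.89 TPM), Eif4e (77.0 ± 0.255 TPM) and Eif4a1 (63.4 ± 2.18 TPM). Eef1a2 stood above each of these 36 in the first quantification, with Eef2 and Eef1a1 near Eif4g2. In the second quantification Eif1 (773 ± 27.5 TPM) was above Eef1a2 (515 ± 9.62 TPM). For termination and rescue, 5 of 6 genes were detected, led by the release factors Etf1 (26.9 ± 0.212 TPM) and Gspt1 (21.6 and 20.4 TPM in libraries 1 and 2), the rescue factors Hbs1l (20.6 ± 0.778 TPM) and Pelo (6.15 ± 0.0707 TPM) and the recycling factor Abce1 (14.3 ± 0.495 TPM). Gspt2 was at 0.0950 ± 0.00707 TPM. Each of these 6 was below Eef2 in TPM.

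Elongation has specialised relatives. For selenocysteine, all 4 listed genes were detected: Eefsec, the carrier of its tRNA, stood at 2.13 ± 0.276 TPM, the selenocysteine element binder Secisbp2 at 4.12 ± 0.354 TPM, and the enzymes that make selenocysteine on its tRNA, Pstk and Sepsecs, at 18.3 ± 1.20 and 2.54 ± 0.445 TPM. In mitochondria, where a separate set of factors works, Tufm, the counterpart of eEF1A, stood at 99.9 ± 5.28 TPM, and its exchange factor Tsfm at 20.8 ± 0.693 TPM. The mitochondrial translocase Gfm1 was at 79.1 ± 5.56 TPM, Gfm2 at 19.1 ± 0.509 TPM and Guf1 at 9.28 ± 0.410 TPM. Carrier, translocase and exchange factor thus came in the same descending order as Eef1a2, Eef2 and Eef1b2 in the cytosol. With Eef1a1 as the carrier this order did not hold in the first quantification, where Eef2 (338 ± 6.11 TPM) lay above Eef1a1 (310 ± 10.3 TPM). In the second quantification Eef2 lay below Eef1a1.

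**Figure D5:**
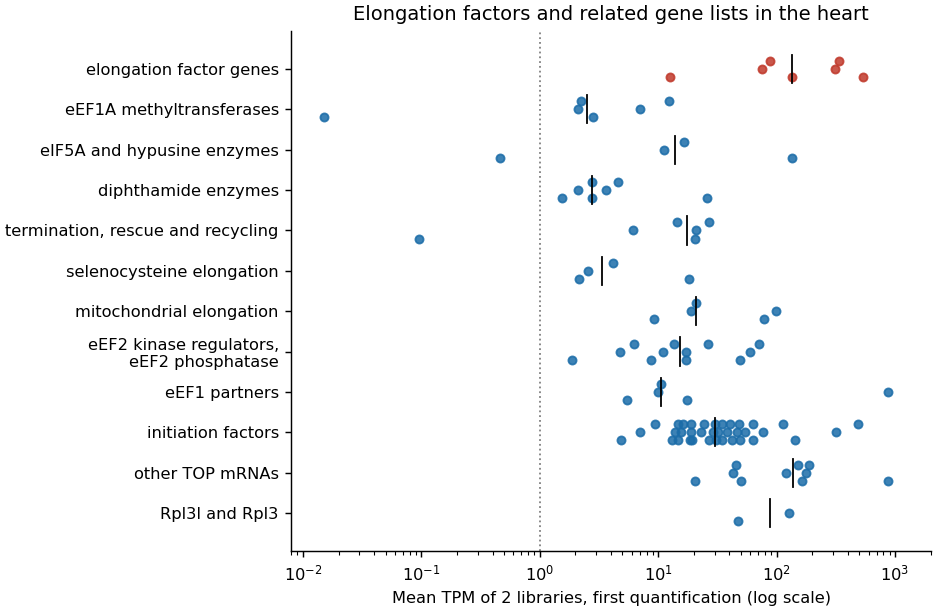
Mean TPM over 2 libraries (x axis, log scale) of the 7 elongation factor genes (red, top row) and of each related list (blue), where 1 point is a gene and the black tick the median. The dotted line is 1 TPM. The modifying enzymes lie mostly below 30 TPM, and Eef1akmt3, Eif5a2 and Gspt2 lie below 1 TPM.

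Mammalian elongation factor mRNAs mostly belong to those with a terminal oligopyrimidine tract, a run of C and T at their 5′ end that makes their translation depend on mTOR. Of 10 other mRNAs known for such a tract, all were detected, with a median of 137 TPM. The leaders were Tpt1, Rpl32 (187 ± 1.29 TPM), Fau (177 ± 5.86 TPM), Naca (165 ± 2.84 TPM), Rps6 (153 ± 5.00 TPM) and Rack1 (121 ± 1.40 TPM), so Eef1a2, Eef2 and Eef1a1 lay above all of these but Tpt1. RefSeq promoter windows of GRCm38.p6, 250 bases before to 50 after the annotated start, matched 5 of the 7 genes (not Eef1d or Eef1g). A C followed by 4 pyrimidines at the annotated start was found in 0 of their 7 windows and in 2.51% of all 32851 windows. For muscle regulators, both strands were searched: MEF2 sites were in 0 of the 7 (0.557% of all windows) and CArG boxes in 0 of the 7 (1.63%). An E-box (CANNTG, bound by many factors) occurred at 3 positions in the Eef2 window, 1 in that of Eef1a2, 0 in those of Eef1a1 and Eef1b2, and in each of the 3 Eef2k windows. Of all windows, 72.3% held at least 1. For the motifs, no match says only that these letters are not in this window. The pyrimidine run was looked for only at the annotated start base, so a tract that begins at another base would be missed. The only Eef1b2 window ends at base 63176880, and the leading transcript Eef1b2-209 starts at base 63177130. The start of Eef1b2-209 was therefore not searched.

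Several members overlap other annotated genes, and the counts that fall within the overlaps were not measured. Eef1b2 shares 9 bases with Ndufs1 on the opposite strand, and Eef1d 277 bases with Naprt on the same strand, which held 357 and 319 counts in libraries 1 and 2. The antisense gene Gm15774 shares 9790 bases with Eef2k, and it had 0 counts in both libraries. The small nucleolar RNA Snord37 within Eef2 also had 0 counts in both libraries. Among the pseudogene copies, 30 in all, 10 reached 10 counts in a library. Besides those named above they were led by Gm6548 (329 and 266 counts) and AC133509.1 (152 and 187 counts), both copies of Eef1a1, and by Gm5525 (242 and 197 counts), a copy of Eef1g. The second quantification gave AC133509.1 14.1 and 5.17 counts. All copies of Eef1a1 together held 4.15% and 3.77% as many counts as the gene itself.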

How the data were processed

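Total RNA was sequenced from heart tissue of 2 libraries, from 300 ng of RNA each, with a directional kit, per the labels' protocols. Reads were mapped to mm10 with GENCODE M21, per the deposited readme. The sources used here do not give the aligner or tool versions. The deposited gene and transcript tables of the first quantification hold expected counts, TPM and FPKM per the file headers, with the standard deviation of each count from the estimator and each transcript's percent of its gene. The second quantification, in another layout, gives each transcript, per the file headers, an estimated count and a TPM, which were summed per gene here. Expected counts totalled 39819960 and 37060119 in libraries 1 and 2.

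The members and lists were chosen with earlier results of these data known. Named were all members, transcripts that led in either quantification or held 10% of a gene in both libraries, the 2 nuclear protein-coding genes nearest each member in mean TPM, up to 6 genes of each list and any under 1 TPM, and the 5 copies with the most counts. A gene that this rule takes is not reported here. Other transcripts, Snord37, Ndufs1, Naprt and Gm15774 were chosen after their values were seen. Detection meant 1 TPM or more in each library. Log2 TPM ratios used a pseudocount of 1, which understates ratios of low genes, and asked for 10 counts in a library and a mean of 1 TPM. Counts were rounded for exact binomial intervals at 95%. This step was tested on simulated data that held counting error only, so that test says nothing on other spread between libraries. Library scaling alternatives came from edgeR 4.0.16 (TMM) and DESeq2 1.42.0 (size factors). Copies were found with BLAST 2.17.0 and sequences aligned with Biopython 1.88 (BLOSUM62). The scripts used R 4.3.3, scipy 1.17.1, pandas 2.3.3, numpy 2.4.6, matplotlib 3.10.9 and Python 3.11.15. With 1 group, no p-value was computed.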

Additional observations from a re-analysis of the deposited data

How the results depend on the processing

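The share of Eef1a2 in eEF1A, 63.3% in TPM, was 56.6% in the second quantification, 69.7% in expected counts, 68.2% for complete coding sequences and 74.2% for complete coding sequences of the second quantification. The ratio of Eef2 to eEF1A, 0.401, was 0.325 in the second quantification, 0.662 in expected counts, 0.405 with counts of copies added, and 0.430 and 0.425 for complete coding sequences of the first and the second quantification. The ratio of eEF1A to the mean eEF1B subunit, 8.46, was 8.09 in the second quantification, 17.0 in expected counts, 8.41 with copies added, 10.3 for protein-coding transcripts, and 11.6 and 10.2 for complete coding sequences of the first and the second quantification. The members' percent of nuclear protein-coding TPM, 0.456, was 0.450 in the second quantification, 0.441 in expected counts and 0.505 for protein-coding transcripts. Settings on complete coding sequences were chosen after seeing the data. The cause of these shifts was not tested, except that counts are not divided by length. Leaving out a library gave 62.2 to 64.3%, 0.398 to 0.404, 8.44 to 8.49 and 0.452 to 0.460 for the 4 measures. The counts of members detected (7) and past 2-fold (0) did not change under any alternative tried, and that of intervals excluding 1 (3) was 4 with TMM sizes. No paired analysis was possible because there is 1 group. Adding the counts of copies moved Eef1g to 81.1 TPM, against 74.8 TPM without them, and Eef1a1 to 322 TPM, against 310 TPM.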
